A study of Mus musculus with 12 samples.

Results

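The genes that encode chemokine ligands were followed by RNA sequencing in mouse liver cells exposed to riociguat, a stimulator of soluble guanylate cyclase, the enzyme that makes cyclic GMP. Members were all genes of the deposited table whose symbol is Ccl or Cxcl followed by a number alone, or Cx3cl1. The rule found 33 genes among 53452, made up of 19 Ccl genes, 13 Cxcl genes and Cx3cl1. A further 6 symbols with a letter or a pseudogene suffix, such as Ccl27a, did not meet it.

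The cells are labelled as HSCs from WT mouse liver, taken here to mean hepatic stellate cells, pericytes of the liver sinusoid that store vitamin A. After isolation they were cultured for 12 h and the medium was changed. DMSO, the solvent control, was added 12 h after that change for 12 h, and riociguat for 12 h was added at the same point. Riociguat for 6 h was added 18 h after the medium change, and riociguat for 24 h together with it. By the labels all 4 groups were thus collected 24 h after the medium change, with 3 libraries each. The compound and the time of addition cannot be told apart in the comparisons of 6 h and 24 h with DMSO, and these and the 12 h comparison share the same 3 DMSO libraries. The dose and the age of the mice are not given in the sources used here. Nothing says that replicates came from separate animals, so the p-values speak only of the spread between these libraries, which may be technical.

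Chemokines are small secreted proteins that bind G protein-coupled receptors on leukocytes and steer their movement along a concentration gradient. Inflammatory ligands such as Ccl2 and Cxcl1 are induced by cytokines and microbial products, largely through the transcription factor NF-kB, while homeostatic ligands such as Cxcl12 are made steadily and keep cells in place. Activated stellate cells are a known source of Ccl2 and of other ligands that draw monocytes and neutrophils into the injured liver.

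Chemokine genes lie in clusters, and the members that changed came from several of them. On GRCm38, Ccl2 and Ccl7 lie with Ccl11, Ccl12, Ccl8 and Ccl1 on chromosome 11 between 82035571 and 82305690. Ccl6 and Ccl9 lie with Ccl5, Ccl3 and Ccl4 on the same chromosome between 83525778 and 83664683. Cxcl1, Cxcl2, Cxcl3, Cxcl5 and Cxcl15 lie on chromosome 5 between 90759360 and 90905938, and Cxcl9, Cxcl10 and Cxcl11 on it between 92321347 and 92365485. Cxcl12 stands alone on chromosome 6 (117168535 to 117181367), Cxcl14 on chromosome 13 and Ccl25 on chromosome 8.

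The promoters of 4 of these genes are shown, Cxcl1 and Cxcl10, which were lower after 6 h of riociguat, and Cxcl2 and Cxcl3. The last 2 hold the same NF-kB motif as Cxcl1. Their log2 changes at 6 h were also negative (-0.22 and -0.17) but did not pass the test. Whether these changes differed from that of Cxcl1 was not tested. Ccl9, which also holds an NF-kB motif and had a change of 0.48 that did not pass, is not shown. Sequences are from RefSeq (GRCm38.p6), 5′ to 3′ on the gene's strand, and end before the start of transcription. Capitals mark matches to the kappaB decamer bound by NF-kB, and in Cxcl10 the leftmost capitals mark an interferon element.
Cxcl1, chr5:90891135-90891214, plus strand: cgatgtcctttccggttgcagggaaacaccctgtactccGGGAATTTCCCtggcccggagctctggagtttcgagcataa
Cxcl2, chr5:90903763-90903842, plus strand: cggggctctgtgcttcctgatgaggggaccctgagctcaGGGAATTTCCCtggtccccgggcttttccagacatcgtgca
Cxcl3, chr5:90785989-90786068, plus strand: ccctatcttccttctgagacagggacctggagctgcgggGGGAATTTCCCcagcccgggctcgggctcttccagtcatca
Cxcl10, chr5:92348975-92349114, minus strand: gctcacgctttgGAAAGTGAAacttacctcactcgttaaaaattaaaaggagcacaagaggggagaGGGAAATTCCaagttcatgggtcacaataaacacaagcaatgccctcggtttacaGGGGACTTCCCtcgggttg

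The capitals of Cxcl1, Cxcl2 and Cxcl3 are the same 11 bases and hold 2 overlapping matches, 71 to 61, 97 to 87 and 73 to 63 bases before the start. Motifs were searched on both strands in the 250 bases before each RefSeq start, and 22 members had such a window. Ccl2, Ccl7, Cxcl5 and some other members had no window and were not searched. The kappaB decamer was found in 7 members (Ccl1, Ccl20, Ccl9, Cxcl1, Cxcl2, Cxcl3 and Cxcl10) and in 7.25% of 32851 windows of all genes. The AP-1 motif TGANTCA was found in Ccl9 and Cxcl10 and in 6.75% of all windows. The interferon element GAAANNGAA was found in 6 members (Ccl1, Ccl19, Ccl3, Cxcl9, Cxcl10 and Cxcl14) and in 7.13% of all windows. The cyclic nucleotide response element TGACGTCA was found in no member window and in 1.55% of all windows. A match describes the letters only.

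The libraries held between 12953096 and 27358893 counts. The filter on low counts left 16036 genes, which were tested with edgeR's quasi-likelihood test. Levels are CPM, read counts made comparable between libraries with TMM factors, and a gene is called at a Benjamini-Hochberg adjusted p under 0.05. DMSO replicate 1 stood apart from the other 2 DMSO libraries, with a chi-square per degree of freedom of 12.3 and 16.0 against 4.08 between those. Markers of stellate cells summed to 3192 to 3268 CPM in DMSO and 3344 to 3450 after 6 h of riociguat. They summed to 3381 to 3507 CPM after 12 h and 3510 to 3755 after 24 h. Of these 17 markers, 7 were called higher and 2 lower at 24 h against DMSO, where 5.94% and 7.41% of all tested genes were. Markers of other liver cells were present, with 1207 to 1824 CPM for endothelial cells, 562 to 1376 CPM for hepatocytes and 144.5 to 197 CPM for macrophages. In such bulk samples, fewer cells of a type and less RNA per cell cannot be told apart.

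Of the 33 members, 22 were tested and 11 fell below the filter. Ccl1, Ccl12 and Ccl26 had 0 counts in all 12 libraries, which allows a level of up to 0.012 CPM over the pooled libraries (3 counts of 251018354, counting error only). The other 8 (Ccl4, Ccl8, Ccl17, Ccl19, Ccl20, Ccl24, Cxcl11 and Cxcl15) had summed counts of 4 to 75 and no group mean above 0.394 CPM. Among the tested members, 15 reached 5 CPM in at least 1 group. The remaining 7 (Ccl3, Ccl5, Ccl11, Ccl22, Ccl28, Cxcl9 and Cxcl17) had group means of 0.282 to 3.95 CPM.

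Cxcl12 had the highest level per length in DMSO, followed closely by the monocyte attractants. Length here is that of all annotated exons of a gene merged, not of the transcripts expressed. The levels per length, their order and their overlaps depend on that choice. Per kilobase of exon, Cxcl12 was at 229 ± 12.0 CPM (SD, n = 3), Ccl2 at 215 ± 16.9, Ccl7 at 168 ± 15.9 and Cxcl1 at 131 ± 16.3. The ranges of Cxcl12 (216 to 239) and Ccl2 (204 to 234) overlapped, while those of Ccl2 and Ccl7 (157 to 186), and of Ccl7 and Cxcl1 (120.3 to 149.6), did not. Next came Cxcl14 (47.4), Cxcl5 (39.4, with a range of 31.5 to 53.2) and Cxcl16 (34.7), of which Cxcl5 overlapped with both of its neighbours. Cxcl2 was at 12.4, and the other tested members were at or below 7.18 CPM per kilobase.

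**Figure D1:**
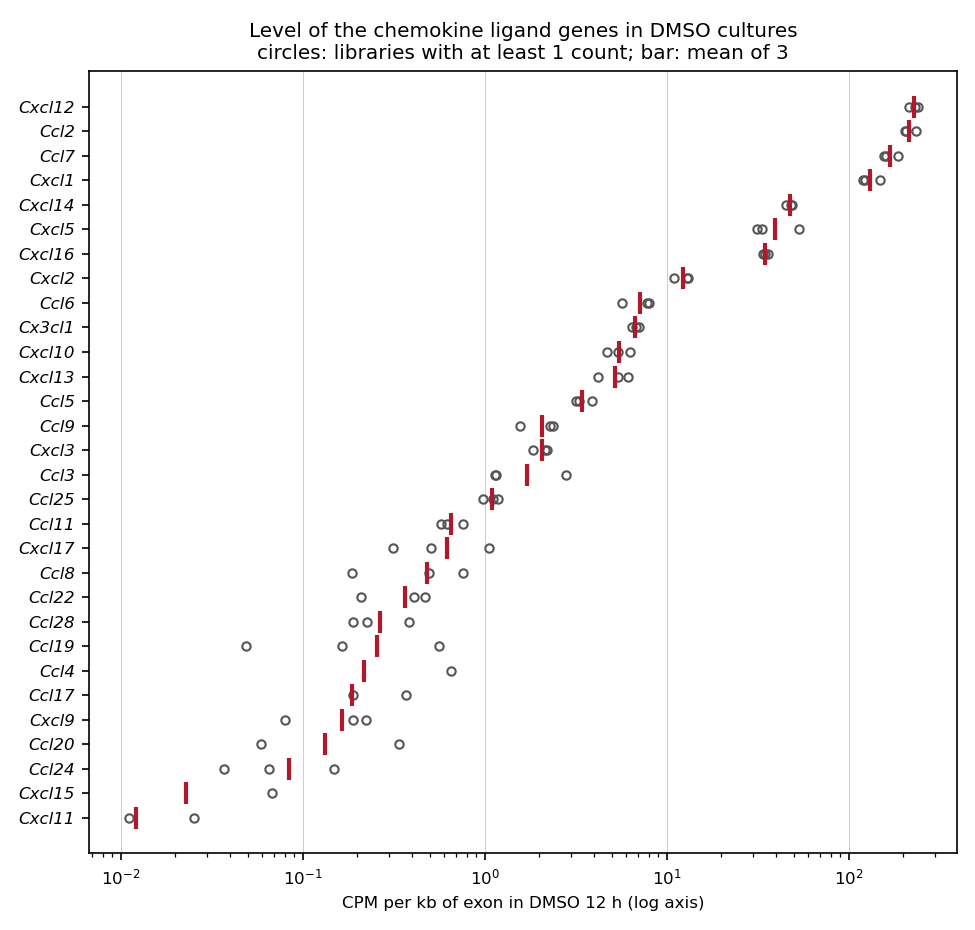
CPM per kilobase of exon (log axis) of the 30 members with counts in the DMSO cultures, highest at the top. Circles are the libraries with at least 1 count and bars the mean of 3; Cxcl12, Ccl2, Ccl7 and Cxcl1 lie above 100 and Cxcl14 follows at 47.4.

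Across the comparisons, calls were mainly lower after 6 h and mainly higher after 24 h. After 6 h against DMSO, 5 of the 22 tested members were lower and 2 higher, where 5.24% of all tested genes were lower and 4.48% higher. After 12 h, 1 was lower and 1 higher, against 3.48% and 2.18% of all tested genes. After 24 h, 1 was lower and 6 higher, against 7.41% and 5.94%. The median log2 change over the 22 members was -0.19 at 6 h, 0.05 at 12 h and 0.02 at 24 h, while over all tested genes it was -0.0044, 0.0025 and -0.0065.

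Between riociguat groups, 12 h against 6 h gave 5 higher and 1 lower members (2.57% and 3.52% of all tested genes). For 24 h against 12 h, 2 were higher and 0 lower (1.37% and 1.71%), where edgeR gave an unadjusted p under 0.05 to 2 lower members and DESeq2 also called 0 lower. For 24 h against 6 h, 7 were higher and 1 lower (7.16% and 8.13%).

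**Figure D2:**
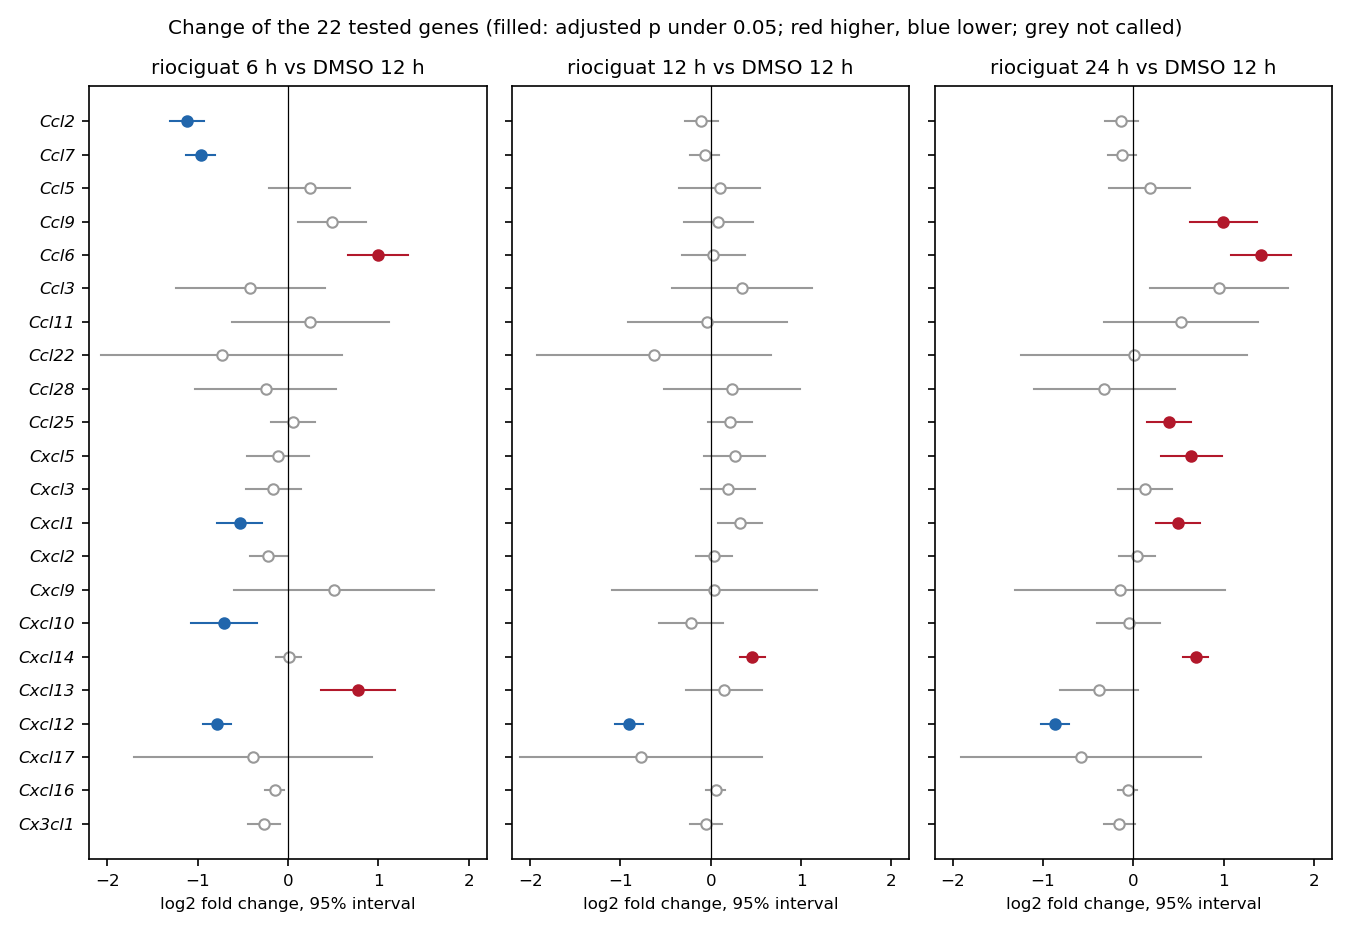
Log2 fold change with its 95% interval of the 22 tested members against DMSO 12 h for the 3 exposure times, grouped by family and role. Filled points have an adjusted p under 0.05 (red higher, blue lower), namely 7 genes at 6 h, 2 at 12 h and 7 at 24 h; Cxcl12 is blue in all 3.

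The homeostatic ligand Cxcl12 was lower in every riociguat group. Cxcl12 binds the receptor Cxcr4 and retains haematopoietic and other cells in tissue. Its level was 1767, 1904 and 1957 CPM in DMSO, and 1110, 1063 and 1096 CPM after 6 h of riociguat. It was 1007, 939 and 1059 CPM after 12 h, and 941, 956 and 1195 CPM after 24 h. The lowest DMSO library lay above all 9 riociguat libraries, whose groups lay close together. Against DMSO the log2 change was -0.78 ± 0.07 at 6 h (SE, adjusted p = 1.65e-06), -0.91 ± 0.07 at 12 h (2.99e-07) and -0.86 ± 0.07 at 24 h (3.06e-07), or 1.72-fold, 1.87-fold and 1.82-fold lower. Between exposure times no difference in Cxcl12 passed the test, with an interval of -0.23 to 0.07 (log2) for 24 h against 6 h. Without riociguat 24 h replicate 3, the highest of its group, that difference was -0.19 and passed (adjusted p = 0.0312).

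Because Cxcl12 alone made up 65.1% of the members' summed CPM in DMSO, it set most of the total. These sums are not divided by length, and Cxcl12 has 8176 bases of exon against 1138 for Ccl2 and 801 for Ccl7. The sum over all members was 2879 ± 19.98 CPM in DMSO (SD, n = 3), 1812 ± 55.9 after 6 h, 2096 ± 38.8 after 12 h and 2220.0 ± 37.9 after 24 h. Without Cxcl12 the sum ranged from 945 to 1106 CPM in DMSO, 654 to 766 after 6 h, 1042 to 1125 after 12 h and 1068 to 1267 after 24 h. In this sum only the 6 h group lay below all DMSO libraries.

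Cxcl14, a ligand made steadily by epithelia and fibroblasts, changed the other way. Its level was 88.9, 82.8 and 88.2 CPM in DMSO, and 91.4, 84.4 and 85.8 CPM after 6 h. It was 120.7, 120.2 and 117 CPM after 12 h, and 123, 149.9 and 146 CPM after 24 h. The libraries of 12 h and 24 h all lay above those of DMSO and 6 h, which overlapped. The log2 change against DMSO was 0.46 ± 0.06 at 12 h (SE, adjusted p = 0.000139) and 0.69 ± 0.06 at 24 h (1.03e-06). At 6 h it was 0.01, with an interval of -0.13 to 0.14. The step from 12 h to 24 h (0.23 ± 0.06) did not pass edgeR's test (adjusted p = 0.0634), though it did with DESeq2 (0.0168) and without riociguat 24 h replicate 1 (0.32, 0.00257).

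Cxcl13, which draws B cells through Cxcr5, was low and highest after 6 h. Its level was 4.83, 6.19 and 7.02 CPM in DMSO, 7.71, 13.1 and 9.79 CPM after 6 h, 8.23, 6.07 and 5.73 CPM after 12 h and 4.85, 4.63 and 4.40 CPM after 24 h. The 6 h libraries lay above DMSO by a narrow margin and above all 24 h libraries. The log2 change at 6 h was 0.77 ± 0.20 (SE, adjusted p = 0.0174), and 24 h against 6 h it fell by 1.15 (0.000652). The 6 h call was lost without riociguat 6 h replicate 2 (adjusted p = 0.128), without DMSO replicate 1 (0.0516) and without DMSO replicate 2 (0.0515). The fourth homeostatic ligand tested, Cxcl17, stayed at or below 0.80 CPM in every library and was not called.

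The monocyte attractants Ccl2 and Ccl7, neighbours that both act on Ccr2, were lower after 6 h and near the DMSO level after 12 h and 24 h. Ccl2 (ENSMUSG00000035385) was at 266, 234.5 and 232 CPM in DMSO and at 128, 111 and 99.9 CPM after 6 h. It was at 247, 217.5 and 216 CPM after 12 h and at 232, 242 and 194 CPM after 24 h. All 6 h libraries lay far below the other 9, among which the groups overlapped. Against DMSO the log2 change of Ccl2 was -1.12 ± 0.09 at 6 h (SE, adjusted p = 3.14e-07), a 2.17-fold lower level. At 12 h it was -0.11 (interval -0.29 to 0.08) and at 24 h -0.13 (interval -0.32 to 0.05), and neither passed the test (adjusted p = 0.614 and 0.369).

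Ccl7 (ENSMUSG00000035373) was at 149, 125 and 129 CPM in DMSO and at 74.2, 69.5 and 63.3 CPM after 6 h. It was at 132, 126 and 127 CPM after 12 h, and at 132.5, 128 and 109 CPM after 24 h. Again the 6 h libraries lay apart from all others. The log2 change at 6 h was -0.97 ± 0.08 (SE, adjusted p = 3.14e-07). The level of Ccl2 per kilobase was 1.26 to 1.32 times that of Ccl7 in DMSO, 1.11 to 1.21 times after 6 h, 1.20 to 1.31 times after 12 h and 1.23 to 1.33 times after 24 h. The ratio was thus lower in the 6 h libraries than in DMSO. Both were higher after 12 h than after 6 h, by 1.01 ± 0.09 for Ccl2 and 0.90 ± 0.08 for Ccl7 (log2, adjusted p = 1.74e-06 and 1.44e-06). The other Ccr2 ligands, Ccl8 and Ccl12, were below the filter.

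**Figure D3:**
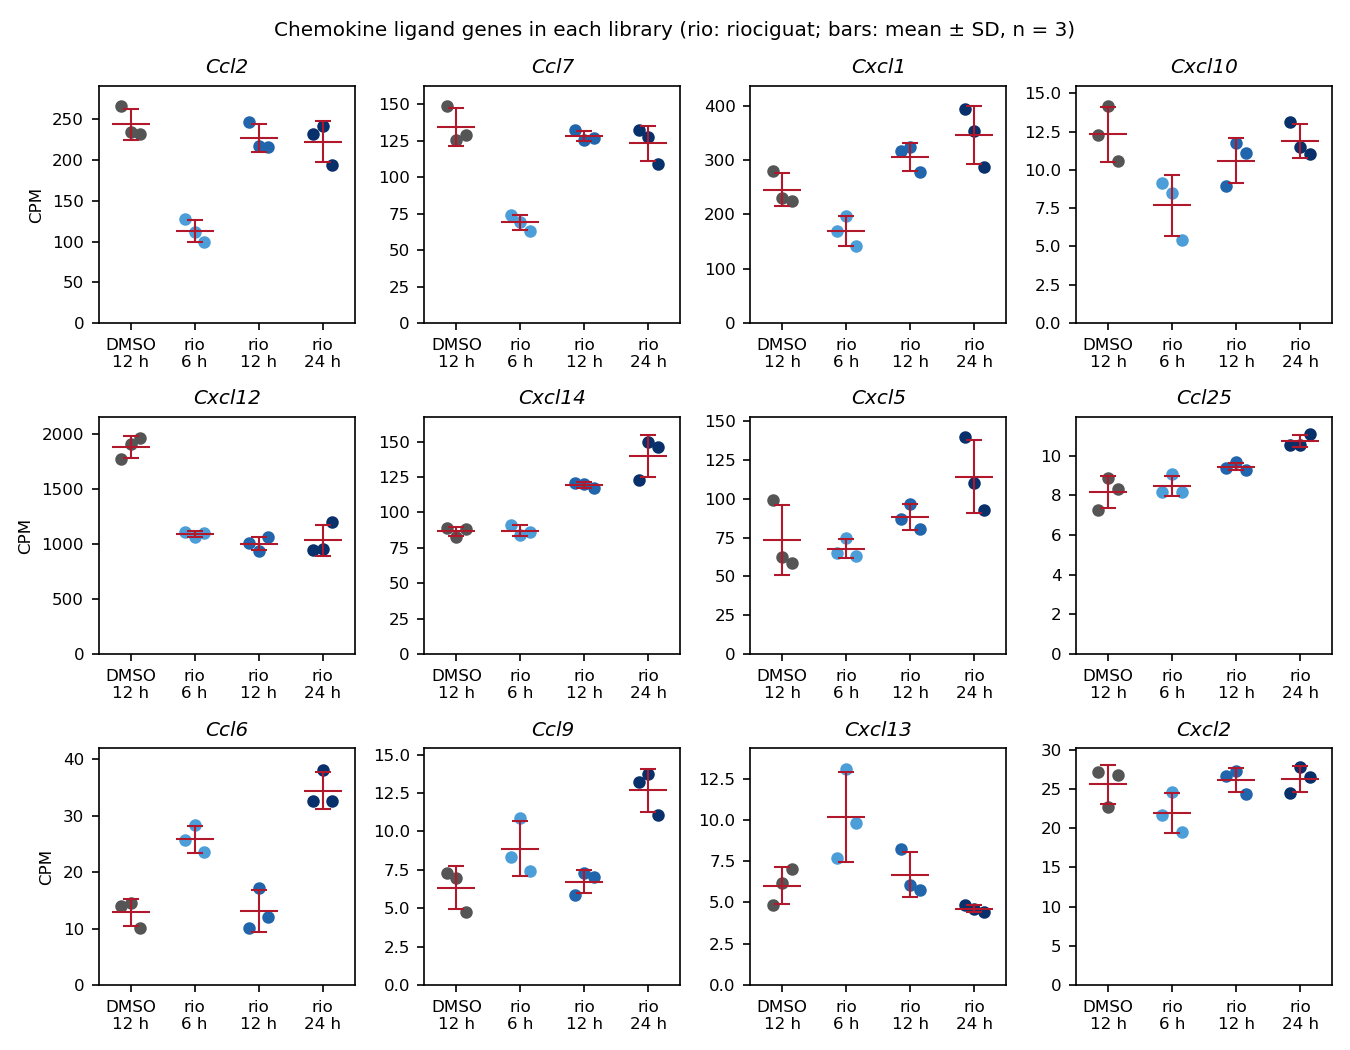
CPM in each of the 12 libraries for the 11 members described one by one and for Cxcl2, with the mean and SD of 3 libraries per group; each panel has its own axis from 0. Ccl2 and Ccl7 dip in the 6 h group alone, Cxcl12 is lower in all 3 riociguat groups, and Ccl6 is high at 6 h and 24 h and low in DMSO and at 12 h.

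Neutrophil attractants with the ELR motif, which act on Cxcr2, showed their calls in Cxcl1 and Cxcl5. Cxcl1 was at 280.5, 229.9 and 225.5 CPM in DMSO and at 169, 198 and 142 CPM after 6 h. It was at 316, 325 and 277 CPM after 12 h, and at 394, 354 and 288 CPM after 24 h. The 6 h libraries lay below DMSO and the 24 h libraries above it, while the lowest 12 h library lay just under DMSO replicate 1. The log2 change of Cxcl1 was -0.53 ± 0.12 at 6 h (SE, adjusted p = 0.00691) and 0.50 ± 0.12 at 24 h (0.00783). At 12 h it was 0.32 ± 0.12 and did not pass (0.14); without DMSO replicate 1 it was 0.43 and passed (0.0297), as it did in a fit of the 6 libraries compared (0.0398). From 6 h to 24 h it was higher by 1.03 ± 0.12 (7.73e-06).

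Cxcl5 was higher after 24 h than in DMSO, although the groups overlapped. Its level was 99.1, 62.5 and 58.7 CPM in DMSO, 65.3, 74.7 and 63.3 CPM after 6 h, 86.9, 96.9 and 80.4 CPM after 12 h, and 139.6, 109.9 and 93.0 CPM after 24 h. DMSO replicate 1 lay above the lowest 24 h library. The log2 change at 24 h was 0.64 ± 0.16 (SE, adjusted p = 0.012). The call was lost without DMSO replicate 2 (0.0749), DMSO replicate 3 (0.0637) or riociguat 24 h replicate 1 (0.0765). At 12 h the change of 0.27 was not called, and without DMSO replicate 1 it was 0.54 and passed (0.0101). Against 6 h the 24 h level was higher by 0.75 ± 0.16 (0.00341), with no overlap.

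Cxcl2 and Cxcl3, whose promoters carry the same motif as Cxcl1, were not called against DMSO. Cxcl2 was at 27.2, 22.7 and 26.8 CPM in DMSO and at 21.7, 24.6 and 19.5 CPM after 6 h, with a log2 change of -0.22 (interval -0.42 to -0.02, adjusted p = 0.178). After 12 h and 24 h it was at 24.3 to 27.8 CPM. Cxcl3 had group means of 6.46 to 8.25 CPM and a log2 change at 6 h of -0.17 (interval -0.47 to 0.14). The level of Cxcl1 per kilobase was 9.27 to 11.4 times that of Cxcl2 in DMSO, 8.03 to 8.86 times after 6 h, 12.6 to 13.1 times after 12 h and 12.0 to 17.7 times after 24 h. That ratio was therefore lowest in the 6 h libraries and higher in all riociguat 12 h and 24 h libraries than in DMSO. Cxcl15 was below the filter.

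The Ccr1 ligands Ccl6 and Ccl9, typical products of myeloid cells in mice, were low in CPM and rose. Ccl6 was at 14.1, 14.4 and 10.2 CPM in DMSO and at 25.6, 28.3 and 23.5 CPM after 6 h. It was at 10.1, 17.2 and 12 CPM after 12 h, and at 32.6, 38.1 and 32.5 CPM after 24 h. The 12 h libraries overlapped with DMSO, and both other groups lay above them. The log2 change of Ccl6 was 0.998 ± 0.16 at 6 h (SE, adjusted p = 0.000497) and 1.41 ± 0.16 at 24 h (7.91e-06), but 0.03 at 12 h (interval -0.32 to 0.38, 0.966). The test of the difference put the 12 h level 0.97 below the 6 h level (0.000859) and the 24 h level 1.38 above the 12 h level (6.2e-05).

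Ccl9 was at 7.27, 6.99 and 4.75 CPM in DMSO, 8.34, 10.9 and 7.41 CPM after 6 h, 5.86, 7.26 and 7.06 CPM after 12 h, and 13.2, 13.8 and 11.1 CPM after 24 h. The 24 h libraries lay above all others. The log2 change at 24 h was 0.996 ± 0.17 (SE, adjusted p = 0.000837), and against 12 h it was 0.91 ± 0.17 (0.00561). At 6 h it was 0.48 and did not pass (0.102). The level of Ccl6 per kilobase was 4.42 to 5.39 times that of Ccl9 after 6 h and 4.19 to 4.98 times after 24 h, against 3.28 to 3.64 times in DMSO and 2.88 to 4.02 times after 12 h.

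Macrophage markers were read beside these genes. Their sum was 164 to 175 CPM in DMSO, 144.5 to 153.5 after 6 h, 163 to 188 after 12 h and 177 to 197 after 24 h. It was thus lowest after 6 h, where Ccl6 had risen. Its mean was highest after 24 h, where Ccl6 and Ccl9 had risen, though the 12 h and 24 h ranges overlapped. From DMSO to 24 h the mean sum went from 169 to 189.5 CPM, and Lyz2 alone from 68.7 to 90.5 CPM. The median log2 change of the tested markers against DMSO was -0.32 at 6 h and 0.06 at 24 h. Of 13 tested markers, the lysozyme gene Lyz2 alone was called against DMSO, lower at 6 h (55.0 against 68.7 CPM) and higher at 24 h (90.5 CPM). Between riociguat groups, Lyz2 and C1qa were higher for 12 h against 6 h, and Lyz2, C1qa and Vsig4 higher and Csf1r lower for 24 h against 6 h. For 24 h against 12 h, where Ccl6 and Ccl9 were called higher, Lyz2 was higher and Csf1r lower. The Kupffer cell markers Timd4 and Clec4f were under 0.5 CPM in every group. Others on the list were present, with group means of 4.25 to 5.38 CPM for Marco, 3.74 to 4.58 for Cd5l and 0.88 to 2.01 for Vsig4. Neutrophil markers summed to at most 1.05 CPM in any library, with Ly6g and Retnlg at 0 in all 12. The part of these cells in the levels of Ccl6 and Ccl9 was not tested.

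Of the neighbours of Ccl6 and Ccl9 in their cluster, Ccl3 averaged 1.30 ± 0.74 CPM in DMSO (SD, n = 3), 0.94 ± 0.28 after 6 h, 1.66 ± 0.29 after 12 h and 2.52 ± 0.56 after 24 h. It was called for 24 h against 6 h alone (1.37 ± 0.38, adjusted p = 0.0189), and that call was lost without either of riociguat 6 h replicates 1 and 3 or riociguat 24 h replicates 1 and 2 (0.0518 to 0.0725). Without DMSO replicate 1, which had 2.15 CPM, Ccl3 was also higher at 24 h against DMSO (1.51, 0.00924). Ccl5, a T cell attractant, ranged from 2.82 to 4.70 CPM over all libraries and was not called in any comparison.

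The interferon-inducible ligand Cxcl10, which draws activated T cells through Cxcr3, was lower after 6 h. It was at 12.2, 14.2 and 10.6 CPM in DMSO, 9.12, 8.51 and 5.41 CPM after 6 h, 8.96, 11.8 and 11.1 CPM after 12 h, and 13.1, 11.5 and 11.03 CPM after 24 h. All 6 h libraries lay below DMSO and below 24 h, and the 6 h and 12 h groups overlapped. The log2 change at 6 h was -0.71 ± 0.17 (SE, adjusted p = 0.0138). It was lost without DMSO replicate 2 (0.0837) or riociguat 6 h replicate 3 (0.0794). For 24 h against 6 h it was 0.66 ± 0.17 (0.0154), lost without riociguat 6 h replicate 3 (0.0941) or 24 h replicate 1 (0.0599). Cxcl9 had group means under 0.70 CPM and was not called, and Cxcl11, annotated as a polymorphic pseudogene, was below the filter.

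Among homing ligands, Ccl25, known for drawing T cells to thymus and gut, was slightly higher after 24 h. Its level was 7.27, 8.85 and 8.33 CPM in DMSO, 8.18, 9.07 and 8.15 CPM after 6 h, 9.39, 9.66 and 9.29 CPM after 12 h, and 10.6, 10.6 and 11.1 CPM after 24 h. The 24 h libraries lay above all others. The log2 change at 24 h was 0.40 ± 0.11 (SE, adjusted p = 0.0272), and the call was lost without DMSO replicate 1 (0.0915), DMSO replicate 3 (0.0528) or riociguat 24 h replicate 3 (0.0728), and in a fit of the 6 libraries compared (0.0679). Ccl28, with group means of 1.03 to 1.52 CPM, and the eotaxin Ccl11 and the Ccr4 ligand Ccl22, both with group means of at most 1.02 CPM, were not called.

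The transmembrane ligands Cxcl16 and Cx3cl1, whose ectodomains are cut off by the proteases Adam10 and Adam17, moved little. Cxcl16 ranged from 89.7 to 110.4 CPM over all libraries. It was not called against DMSO (log2 -0.15 at 6 h, adjusted p = 0.0735) and was higher for 12 h against 6 h by 0.20 ± 0.05 (0.0204). That last call was lost without riociguat 6 h replicate 3 (0.139) or riociguat 12 h replicates 1 (0.0633) or 3 (0.0737). Cx3cl1 had 22.1 ± 1.18 CPM after 6 h and 26.5 ± 1.16 CPM in DMSO (SD, n = 3), a log2 change of -0.27 (interval -0.45 to -0.09) that missed the threshold (0.0523). Without DMSO replicate 1 it was -0.30 and passed (0.0479).

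The genes through which these ligands are made and sensed were read from lists of pathway members. For the calls in these and the marker lists, the shares of all tested genes at 6 h were 5.24% lower and 4.48% higher. At 12 h they were 3.48% lower and 2.18% higher, and at 24 h 7.41% lower and 5.94% higher. Of 17 NF-kB subunits, inhibitors and kinases, 8 were lower and 1 higher after 6 h, against 1 and 1 after 12 h and 2 and 2 after 24 h. The median log2 change of the list at 6 h was -0.23, against -0.0044 over all tested genes. The inhibitor gene Tnip1 fell from 128 ± 2.82 to 85.8 ± 1.03 CPM at 6 h (SD, n = 3, log2 -0.58, adjusted p = 1.23e-06) and was at 125 ± 5.83 CPM at 12 h. Tnfaip3, which encodes the inhibitor A20, was lower in all 3 riociguat groups (-0.43, -0.28 and -0.51). The subunit gene Nfkb2 was lower at 6 h (-0.35 ± 0.05, 0.000118). Ikbkg, the regulatory subunit of the kinase that frees NF-kB, was higher at 6 h (0.42 ± 0.04, 3.98e-06) and at 12 h (0.23, 0.00209).

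**Figure D4:**
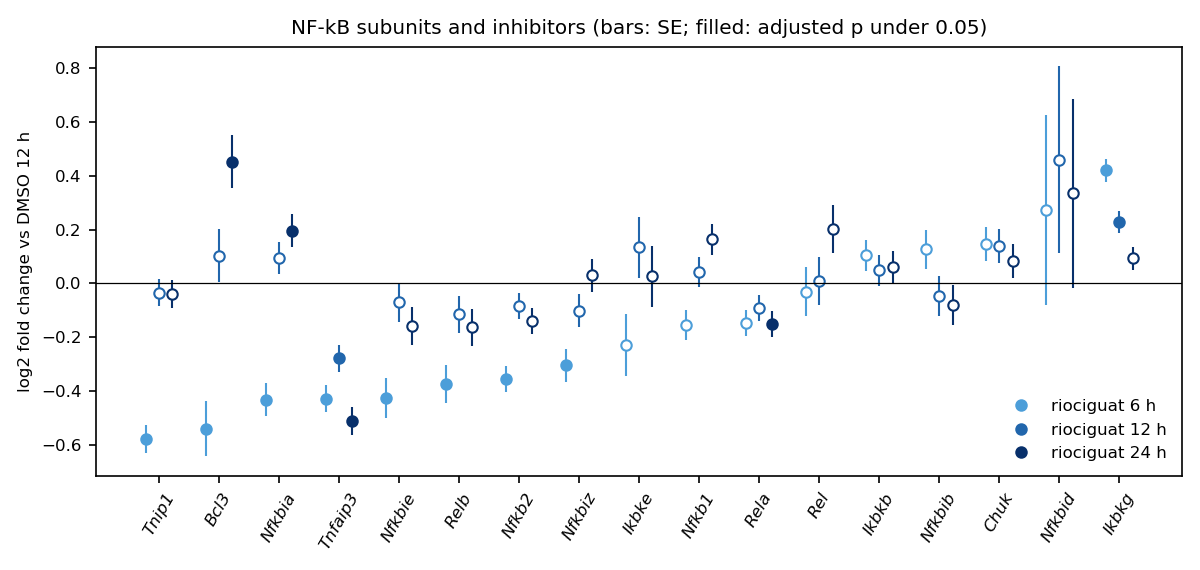
Log2 fold change against DMSO 12 h (bars SE) of the 17 listed NF-kB genes after 6, 12 and 24 h, ordered by the change at 6 h, filled where the adjusted p is under 0.05. At 6 h, 8 genes from Tnip1 to Nfkbiz are lower and Ikbkg is higher; at 12 h and 24 h, 2 and 4 of the 17 are called.

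Among cytokines known to induce chemokines, 8 of 13 listed genes were tested. At 6 h, Csf1 and Lif were lower and Il6 higher. Csf1 had a mean of 2722 CPM in DMSO (SD 121.5, n = 3) and was lower in all 3 groups (-0.28, -0.28 and -0.38). Il6, below 5 CPM and picked after its values were seen, was at 1.53 ± 0.91 CPM in DMSO and 3.75 ± 0.59, 4.43 ± 0.49 and 3.82 ± 0.55 CPM after 6, 12 and 24 h (adjusted p = 0.00989, 0.00345 and 0.00662). Il33 was higher at 24 h (1.07 ± 0.13, 2.72e-05). Of 17 cytokine and pattern receptors, 1 was higher and 1 lower at 6 h, 4 and 1 at 12 h and 5 and 2 at 24 h. The interleukin 1 receptor Il1r1 was higher at 12 h (0.22) and 24 h (0.45), as was the TNF receptor Tnfrsf1a (0.22 and 0.35). The receptor gene Il6ra was lower at 24 h (-0.45, adjusted p = 0.00105). Il6st was lower at 6 h (-0.18, 0.00327) and higher at 24 h (0.25, 0.000151).

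Of 8 AP-1 factors, 3 were lower at 6 h, 1 at 12 h and 6 at 24 h, and 0 were higher in any of these comparisons, also at an unadjusted p under 0.05. Fosl2 was lower at 12 h (-0.35 ± 0.05, adjusted p = 8.02e-05) and Jun at 24 h (-0.25, 0.00113). Of 22 interferon response genes, Irf1 was called higher at 24 h (0.31 ± 0.07, 0.00959). At 6 h, where Cxcl10 was lower, 0 were called, and edgeR gave an unadjusted p under 0.05 to 1 higher and 0 lower gene. At 12 h 0 were called, with 9 higher and 1 lower at that unadjusted p. The summed level of the 22 genes was 666 CPM in riociguat 12 h replicate 3 and 367 to 474 CPM in the other 11 libraries. Cxcl10 in that library, at 11.1 CPM, lay within the range of its group.

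Of 19 chemokine receptor genes, 6 were tested. Cxcr4, the receptor for Cxcl12, had 6.96 ± 0.83 CPM in DMSO (SD, n = 3). After 6, 12 and 24 h it had 9.44 ± 2.12, 6.07 ± 0.76 and 3.68 ± 0.51 CPM. Against DMSO it was lower at 24 h (log2 -0.91, adjusted p = 0.00281) and was not called at 6 h (0.42) or 12 h (-0.20). Between riociguat groups it was lower for 12 h against 6 h (-0.62, 0.0437) and 24 h against 12 h (-0.71, 0.0464). The same held for 24 h against 6 h (-1.34, 6.52e-05). Ccrl2 was lower at 6 h (-0.77, 0.00943). Ccr1, the receptor of Ccl6 and Ccl9, was higher at 24 h at a low level (2.94 against 1.30 CPM, 1.19, 0.034), and was picked after its values were seen. Of 4 atypical receptors, which bind ligands without G protein signalling, Ackr1 was higher at 24 h (7.41 ± 1.12 against 2.11 ± 0.49 CPM, 1.81 ± 0.23, 2.73e-05). Ackr3, which removes Cxcl12, was at 7.56 to 8.50 CPM in the group means and was not called. Endothelial cells make Ackr1, and of 15 endothelial markers 3 were higher and 6 lower at 24 h. The summed level of these markers was 1207 to 1280 CPM at 24 h and 1439 to 1546 CPM in DMSO, and their part in the change of Ackr1 was not tested.

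Of 8 proteases that cut chemokines, Adam10 was higher at 6 h (0.28 ± 0.06, adjusted p = 0.00357) and Adam17 at 24 h (0.19 ± 0.05, 0.0157). Mmp14 was lower at 6 h and 24 h (-0.26 and -0.22), and Mmp13 at 12 h (-0.53, 0.00154). Of 8 other ligand genes outside the rule, 4 were tested and 0 were called against DMSO by edgeR, with 0 at an unadjusted p under 0.05. Platelet factor Pf4, the best expressed of them, was at 21.5 to 22.6 CPM in all group means.

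Markers of further cell types moved with exposure time beside these results. Hepatocyte markers summed to 1187 to 1244 CPM in DMSO and 562 to 795 CPM after 24 h, where 9 of 11 were lower. After 6 h, where Ccl2, Ccl7, Cxcl1 and Cxcl10 were lower, endothelial markers summed to 1729 to 1824 CPM against 1439 to 1546 CPM in DMSO, and 5 of 15 were higher and 1 lower. Markers of portal fibroblasts and mesothelium summed to 541 to 578 CPM after 6 h and 673 to 749 CPM in DMSO, and 1 of 9 was lower, Fbln2 (252 against 384 CPM). Cholangiocyte markers summed to 250.9 to 270.5 CPM after 6 h and 292.9 to 309.3 CPM in DMSO. Of 6 tested, 1 was lower, Sox9, and 0 higher. Lymphocyte markers, at very low levels, summed to 1.81 to 2.70 CPM after 6 h and 3.92 to 5.33 CPM in DMSO. Of 5 tested, 1 was lower, Cd4, and 0 higher. The part of these cell types in those changes was not tested.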

How the data were processed

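The authors deposited 1 table of expected counts per gene for 12 libraries, all whole numbers, so rounding changed none. Per the submitters' processing notes, FastQC, fastp, Salmon and DESeq2 were used with build GRCm38; versions, strand handling and annotation are not given in the sources used here. Salmon shares reads among similar transcripts, so near-identical chemokine genes may be split unevenly. Symbols matched 53355 of 53452 genes, and positions and exon lengths came from GENCODE vM21. Counts were tested in R 4.3.3 with edgeR 4.0.16 (filterByExpr, TMM, glmQLFit, glmQLFTest, two-sided) in 1 model of the 12 libraries whose sole factor was the group. P-values were adjusted by Benjamini-Hochberg over 16036 genes in each comparison. The common biological coefficient of variation was 0.0798. The steps were tested on simulated data. Alternatives were DESeq2 1.42.0, other filters and scalings, a replicate block, a fit of the 6 libraries compared and leaving out each library.

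Members and lists were chosen with earlier results of these data known. Values in every library are given for tested members with at least 5 CPM in a group and a call against DMSO, and for the 3 highest per kilobase. From each pathway list, up to 4 genes of at least 5 CPM with the smallest p were named. No library was left out, and all count columns matched a sample.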

Additional observations from a re-analysis of the deposited data

Results flagged for a closer look

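For 8 members the effect after 24 h differed from the effect after 6 h, both against DMSO, by edgeR's test of the difference itself. Since both effects share the DMSO libraries, this equals the direct comparison of 24 h with 6 h in the report. On the log2 scale the 24 h effect minus the 6 h effect was 1.37 for Ccl3, 1.03 for Cxcl1, 0.99 for Ccl2, 0.84 for Ccl7, 0.75 for Cxcl5, 0.68 for Cxcl14, 0.66 for Cxcl10 and -1.15 for Cxcl13. The effects had opposite signs for 4 of them: Cxcl1 (-0.53 at 6 h and 0.50 at 24 h, both called), Cxcl5 (-0.11 and 0.64, called at 24 h), Cxcl13 (0.77 and -0.38, called at 6 h) and Ccl3 (-0.42 and 0.95, neither called). For Ccl2 and Ccl7 a called decrease at 6 h stood beside -0.13 at 24 h, which was not called. For Cxcl14 an effect of 0.01 at 6 h stood beside a called increase of 0.69.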

How the results depend on the processing

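Of 1533 values of the 22 tested members under alternatives, 1474 kept their side of the threshold, 22 lost and 37 gained a call. Among values called in the main fit or the alternative, 0 reversed direction. Where neither fit called the gene, direction was not compared. Without the filter on low counts, the members called for riociguat 12 h against DMSO were 4 instead of 2, and for 24 h against 12 h they were 5 instead of 2; the cause was not tested. Leaving out each library gave 2 to 4 calls for 12 h against DMSO, with 4 without DMSO replicate 1. With a replicate block the calls were 3 for 12 h, 7 for 6 h and 7 for 24 h against DMSO, 6 for 12 h against 6 h, 2 for 24 h against 12 h and 10 for 24 h against 6 h. Cxcl1 at 12 h against DMSO, which was not called in the report, passed with the block (0.32, adjusted p = 0.023) and without the filter (0.33, 4.59e-09). In the main edgeR fit its change was also 0.32, with an adjusted p of 0.14. Why the adjusted p was so much smaller without the filter at nearly the same change was not tested. Replicate numbers showed no clear pairing of the samples: of 18 same-number pairs, 3 had a correlation of deviations over 0.1 (range -0.202 to 0.167). Pairs with other numbers ranged from -0.136 to 0.148. With 3 libraries per group, these correlations cannot exclude a shared animal or day. The 8 lower NF-kB genes at 6 h stayed 8 under each alternative run for that list, a count added after the values were seen. Intervals were wide for members with few counts: Ccl22, with 0.85 CPM in DMSO, had a log2 change at 6 h of -0.74 and an interval of -2.07 to 0.60.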
